A study of Mus musculus with 20 samples.

Results

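Sorted endothelial cells from the injured mouse sciatic nerve at 14 days post-injury (14 dpi, 4 libraries) were compared with the same kind of cells from uninjured nerve (intact, 5 libraries), 9 of the 20 libraries of the series. They were chosen by their labels alone: every library of the Tomato experiment whose condition was intact or 14 dpi. The question was which features of the endothelial state were still different from intact nerve 2 weeks after the injury. The 5 Tomato libraries at 7 dpi entered the same model and are given as a reference level.

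All these groups shared the genotype Plxnd1 WT and a tdTomato reporter at the Rosa26 locus (R26-TomatoLSL, written R26-TdTomato in the labels) that Cdh5(PAC)-CreERT2 switches on. Cdh5, the gene of VE-cadherin, is the endothelial junction gene whose regulatory sequence drives this tamoxifen-inducible Cre, so a sorted cell is one in which the Cre had acted. The donors were adult mice. Nerves were pooled before they were dissociated, and tdTomato-positive cells without surface CD45, a leukocyte antigen, were collected by flow sorting and profiled by bulk RNA-seq of polyA RNA. The injured tissue is labelled bridge, which is new tissue at the lesion, while the condition label names a crush. The sources leave unsettled which of them was done. No label ties a library to its animals, so the p-values rest on differences among libraries that can be partly technical. Library batch is given as 1133 (2 intact and 2 libraries at 14 dpi) or 1292 (3 and 2), and batch was a term in the model.

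The vessels inside a peripheral nerve form the blood-nerve barrier. Their endothelial cells are joined by tight junctions, carry out little transcytosis and express transporters for glucose, amino acids, thyroid hormone and other solutes, and in the related vessels of the brain this state is kept by Wnt signalling through beta-catenin. After injury, endothelial cells leave this quiescent state, divide, migrate as tip cells and stalk cells, lay down new basement membrane and later are remodelled into arteries, capillaries and veins. In a bulk sorted sample, fewer cells of a type and less RNA per cell cannot be told apart, and this holds for every difference given here.

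The endothelial label was checked against its markers, which were present throughout: Pecam1, the adhesion molecule CD31, was at 1528, 2092, 1528, 1033 and 734 CPM (counts scaled to a common library size) in the 5 intact libraries and 2073, 1998, 1569 and 1959 CPM at 14 dpi. RNA of other cells was also present in both groups. Over the 14 fibroblast markers the summed level was 9934 to 21338 CPM in intact and 15550.1 to 32069 CPM in 14 dpi libraries, most of it from Dcn, the matrix proteoglycan decorin. The 7 perineurial markers, genes of the sheath cells around the fascicle, summed to 2438 to 5092 CPM in intact and 1223 to 2786 CPM in 14 dpi libraries, and within each batch every library at 14 dpi lay below every intact one. For 13 Schwann cell markers the range was 606 to 1079.8 CPM in intact and 749 to 2654 CPM in 14 dpi libraries, and for 12 mural markers 2513 to 3787 CPM in intact and 1646 to 3931 CPM in 14 dpi libraries. The 14 macrophage markers summed to 32.7 to 49.5 CPM in intact nerve and to 42.1, 53.0, 1350.0 and 68.4 CPM at 14 dpi, so replicate 3 at 14 dpi stood apart from the others. No marker of these 5 lists was at 0 in every library of either group. The 4 Y-linked genes measured summed to 40.1 to 239.6 CPM in intact and 0 to 268 CPM in 14 dpi libraries, with replicates 3 and 4 at 14 dpi, both of batch 1133, at 0; no intact library was at 0, and the labels give no sex of the donors. With the mean of these 4 genes as a covariate 1038 genes were higher and 848 lower at 14 dpi. Total counts per library were 19057029 to 34181449.

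**Figure D1:**
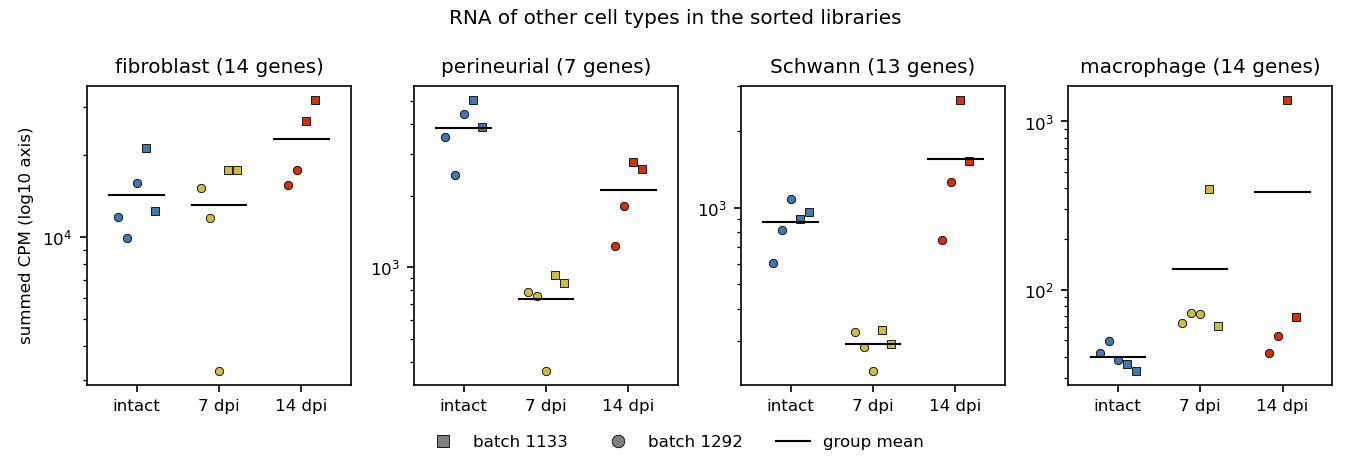
Summed CPM (log10 axis) of 4 marker lists in each library of intact nerve (5 points), 7 dpi (5) and 14 dpi (4); bars mark the group means and the symbol shape gives the batch. Perineurial sums lay below every intact library in 2 of 4 libraries at 14 dpi and Schwann cell sums above every intact library in 3 of 4, and 1 library at 14 dpi had a macrophage sum of 1350.0 CPM.

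At 14 dpi 1401 genes were higher and 1038 lower than in intact nerve, 6.86% and 5.09% of the 20409 genes tested, and 750 and 605 of them differed at least 2-fold. The median log2 fold change of all genes tested was 0.00. The counts called in each list below are to be read beside the 6.86% and 5.09% of all genes. Without replicate 2 at 14 dpi 670 genes were lower. With the mean of the perineurial list as a covariate 672 were higher and 278 lower, and with that of the fibroblast list 257 and 423. The sums of both lists differ between the groups, so such a covariate by construction also takes up part of the group difference. Chga, encoding the secretory granule protein chromogranin A, was at 0.477, 2.53, 2.82, 0.850 and 0.790 CPM in intact libraries and 46.8, 43.5, 62.3 and 69.3 CPM at 14 dpi. The 14 dpi libraries all lay above the intact ones, with a log2 fold change of 5.27 ± 0.42 (SE; adjusted p = 9.5e-07). From here on, a value in parentheses after a gene is its log2 fold change at 14 dpi against intact with its SE, and 2 levels joined by "to" are group means ± SD (n = 5 intact and 4 at 14 dpi). Cd276, the immune checkpoint ligand B7-H3 found on tumour vessels, was at 2.42, 3.56, 1.87, 2.48 and 1.51 CPM in intact nerve against 40.4, 54.3, 58.9 and 67.6 CPM at 14 dpi, 23.3-fold higher (4.54 ± 0.25, adjusted p = 3.6e-08), after a mean of 199 ± 47.7 CPM (SD, n = 5) at 7 dpi. Nox4, an oxidase that produces hydrogen peroxide, rose from 2.17 ± 0.729 to 23.3 ± 5.26 CPM (3.42 ± 0.24, adjusted p = 3.6e-07). Has1, a hyaluronan synthase, rose from 2.19 ± 1.55 to 47.4 ± 18.9 CPM (4.36 ± 0.50, adjusted p = 1.9e-05). Sfrp4, a secreted Wnt antagonist, rose from 15.5 ± 10.7 to 268 ± 60.1 CPM (3.99 ± 0.59, adjusted p = 3.6e-04). These 5 genes were picked from the greatest rises, and none overlapped between the groups (5.14% of all genes had every 14 dpi library above every intact one). Other rises among the 15 greatest were Plac8, Mfap4, Tspan11, Col26a1, AW551984, AA467197 and Lcp2 (log2 fold changes of 3.65 for AA467197 and 3.58 for Lcp2, the adaptor of antigen receptor signalling SLP-76, to 5.80 for Mfap4, a protein of elastic fibres). Sfrp4 (log2 fold change 2.03, adjusted p = 0.106) and Col26a1 (1.72, adjusted p = 0.329) were not called with the fibroblast covariate. Nor was AW551984 (3.16, adjusted p = 0.0577), while the other rises named in this paragraph were.

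Ctss, Mmp12 and C1qb also ranked among the 15 greatest rises, with log2 fold changes of 7.52, 6.80 and 4.79, but their level rested on 1 library. Ctss, the lysosomal protease cathepsin S, was at 0.779, 2.83, 188 and 4.92 CPM in the 4 libraries at 14 dpi. Mmp12, the macrophage elastase, was at 0.312, 0.680, 115 and 0.574 CPM. Replicate 3, which held the macrophage marker RNA, carried nearly all of it. Without that library neither Mmp12 (adjusted p = 0.151) nor C1qb (adjusted p = 0.0619) was called, while Ctss was still called at a log2 fold change of 4.77 (adjusted p = 0.00371). The call of Mmp12 was lost in 8 of the 9 fits that each left out 1 library (adjusted p up to 0.151). That of C1qb was lost in 4 (adjusted p up to 0.0755).

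The deepest fall of the 15 chosen was that of a transporter. Slco1c1, the thyroid hormone carrier OATP1C1 (chromosome 6, 141524386-141570177, GRCm38), was at 33.9, 15.6, 22.9, 24.5 and 14.4 CPM in intact libraries and 1.45, 1.55, 0.632 and 0.144 CPM at 14 dpi, 4.09% of the intact level by the fit (-4.61 ± 0.49, adjusted p = 1.2e-05). Degs2, an enzyme that modifies sphingolipids, went from 134 ± 33.1 to 14.2 ± 3.69 CPM (-3.17 ± 0.35, adjusted p = 1.6e-05). Fam107a, an actin-binding stress gene, fell from 41.8 ± 10.7 to 4.47 ± 1.51 CPM (-3.12 ± 0.30, adjusted p = 4.0e-06). Rbp4, the plasma carrier of retinol, fell from 61.5 ± 23.2 to 7.28 ± 1.77 CPM (-3.14 ± 0.49, adjusted p = 3.4e-04). In all 4, picked from the 15 falls, the groups did not overlap (4.73% of all genes had every 14 dpi library below every intact one). Lcn2, Thsd4, Cytl1, Zbtb16, Slco1a4, Tnfrsf19, Slc19a3, Zfp185, Tnnt3 and Mybph were among the others of the 15, with log2 fold changes from -3.78 for Zbtb16 to -2.79 for Mybph. Tnnt3 and Mybph are genes of skeletal muscle. The 10 muscle and fat markers, Tnnt3 among them, summed to 25.9 to 62.2 CPM in intact and 9.03 to 13.3 CPM in 14 dpi libraries, with no overlap, and Mylpf, a muscle myosin light chain, fell too (-0.88 ± 0.25, adjusted p = 0.0282). The part of muscle RNA in these falls was not tested. Rbp4 (log2 fold change -1.27, adjusted p = 0.146) and Mybph (-0.90, adjusted p = 0.475) were not called with the perineurial covariate. Nor were Tnnt3 and Zbtb16 (adjusted p = 0.0572 and 0.0646), while Slco1c1, Degs2 and Fam107a were called in each of the 21 other settings tried. The call of Mylpf was lost in 4 of the 9 fits that each left out 1 library (adjusted p up to 0.106).

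**Figure D2:**
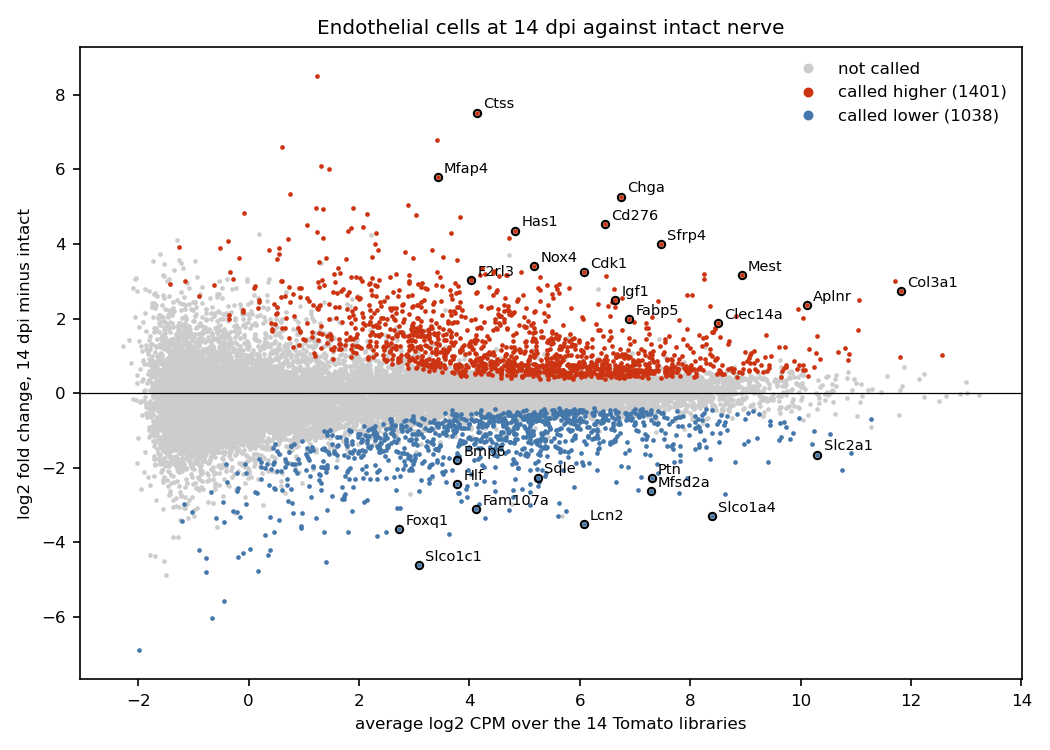
Log2 fold change at 14 dpi against intact nerve (vertical) by average log2 CPM (horizontal) for the 20409 genes tested; coloured points are the 1401 genes called higher and the 1038 called lower. Labelled genes include Chga and Cd276 at the top and Slco1c1, Slco1a4 and Fam107a at the bottom.

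Cell division genes were above their intact level at 14 dpi. All 26 mitosis genes of the list were called higher than in intact nerve, with a median log2 fold change of 2.39, and in 25 of them the groups did not overlap, against 5.14% of all genes with every 14 dpi library above every intact one. All 26 were also lower than at 7 dpi (4.20% of all genes were called lower at 14 than at 7 dpi). Cdk1, the kinase that drives entry into mitosis, was at 2.83, 5.47, 3.92, 4.59 and 5.89 CPM in intact libraries, at 130.5, 133.2, 146, 181 and 157 CPM at 7 dpi and at 41.5, 39.1, 36.7 and 58.2 CPM at 14 dpi. The 3 groups did not overlap; the log2 fold change over intact was 3.25 ± 0.18 (adjusted p = 3.6e-08), and that of 14 against 7 dpi was -1.80 ± 0.17, adjusted p = 1.8e-05. Ube2c, a ubiquitin carrier of the anaphase-promoting complex, rose from 3.29 ± 1.32 to 21.7 ± 5.14 CPM (2.67 ± 0.22, adjusted p = 1.7e-06). Birc5, the chromosomal passenger survivin, rose from 2.81 ± 1.30 to 20.7 ± 4.05 CPM (2.86 ± 0.23, adjusted p = 1.1e-06). Cdc20, the activator of that complex, had the least separation, at 9.21, 13.3, 17.6, 13.4 and 14.7 CPM against 14.4, 36.5, 38.7 and 57.4 CPM, and its groups overlapped (1.33 ± 0.25, adjusted p = 0.00176).

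The promoters of these genes are shown because mitosis genes are known to share a pair of elements, the CCAAT box bound by NF-Y and the CHR element TTTGAA bound by the MuvB complexes. Below are the 250 bases before the RefSeq start (GRCm38.p6) of 3 members that rose, 5′ to 3′ on the gene's strand, with matches to TTTGAA and CCAAT on either strand (TTCAAA and ATTGG in reverse) in capitals.
Cdk1, chr10:69352913-69353162, minus strand: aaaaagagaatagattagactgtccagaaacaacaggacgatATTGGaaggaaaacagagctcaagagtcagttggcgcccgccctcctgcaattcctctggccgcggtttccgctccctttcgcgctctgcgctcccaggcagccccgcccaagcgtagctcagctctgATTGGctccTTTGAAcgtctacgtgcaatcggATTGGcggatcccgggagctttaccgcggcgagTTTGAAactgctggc
Ube2c, chr2:164769679-164769928, plus strand: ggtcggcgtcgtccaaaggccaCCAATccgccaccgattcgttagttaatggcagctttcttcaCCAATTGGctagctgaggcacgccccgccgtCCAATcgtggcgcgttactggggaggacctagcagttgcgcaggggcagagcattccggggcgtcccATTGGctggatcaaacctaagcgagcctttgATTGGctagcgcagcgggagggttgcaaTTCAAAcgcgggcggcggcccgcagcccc
Cdc20, chr4:118437344-118437593, minus strand: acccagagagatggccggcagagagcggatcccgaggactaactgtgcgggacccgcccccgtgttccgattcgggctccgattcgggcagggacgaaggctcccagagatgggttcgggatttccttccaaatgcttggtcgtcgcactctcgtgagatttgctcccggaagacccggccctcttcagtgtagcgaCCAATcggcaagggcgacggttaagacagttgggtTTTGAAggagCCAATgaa
All 3 held both elements, Cdk1 with TTTGAA beginning 71 and 15 bases before the start and Cdc20 with it 18 bases before. Of the 26 mitosis genes 22 matched a promoter in the RefSeq table. TTTGAA was found in 8 of the 22 and in 13.9% of the promoters of 13197 genes tested, and CCAAT in 18 of the 22 against 39.4%. These matches describe the letters in the window and no binding was measured here.

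The median of the DNA replication genes was nearer to 0 than that of the mitosis genes. Of 26, 18 were called higher and none lower, with a median of 0.90, while 24 were lower than at 7 dpi (4.20% of all genes). Tk1, thymidine kinase, rose from 2.98 ± 0.863 to 21.3 ± 5.01 CPM (2.81 ± 0.19, adjusted p = 3.5e-07). Rrm2, the regulated subunit of ribonucleotide reductase, rose from 5.26 ± 1.91 to 26.7 ± 3.54 CPM (2.36 ± 0.24, adjusted p = 7.2e-06). Among the helicase subunits Mcm5 rose (1.45 ± 0.19, adjusted p = 6.2e-05) and Mcm4 did not pass (0.09 ± 0.16, adjusted p = 0.818). With the mean of the perineurial list or of the fibroblast list as a covariate, 6 and 5 of the 26 were called higher, against 25 and 23 of the 26 mitosis genes. In the batches alone 9 (1133) and 7 (1292) of the replication genes were called. Of 15 genes of cell cycle entry and its brakes, 3 rose and 1 fell. Cdk4, the G1 kinase, rose (0.70 ± 0.16, adjusted p = 0.00799). The kinase inhibitors Cdkn2a (INK4a and ARF) and Cdkn2c (p18) also rose. Cdkn2a rose from 0.475 ± 0.286 to 2.05 ± 0.726 CPM (2.13 ± 0.45, adjusted p = 0.00398) and Cdkn2c from 13.2 ± 1.87 to 27.8 ± 7.60 CPM (1.06 ± 0.24, adjusted p = 0.00801). Ccnd2, cyclin D2, was lower in all 4 libraries than in any intact one, at 279, 285, 341 and 256 against 522, 424, 422, 459 and 356 CPM (-0.59 ± 0.14, adjusted p = 0.00867). The call of Cdkn2c was lost in 1 of the 9 fits that each left out 1 library (adjusted p up to 0.0558). None of the 3 rises, nor the fall of Ccnd2, was called with the perineurial or fibroblast covariate or in batch 1133 alone. With the fibroblast covariate the log2 fold change was 0.35 for Cdk4 (adjusted p = 0.744), 0.26 for Cdkn2c (adjusted p = 0.919) and 1.45 for Cdkn2a (adjusted p = 0.584).

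**Figure D3:**
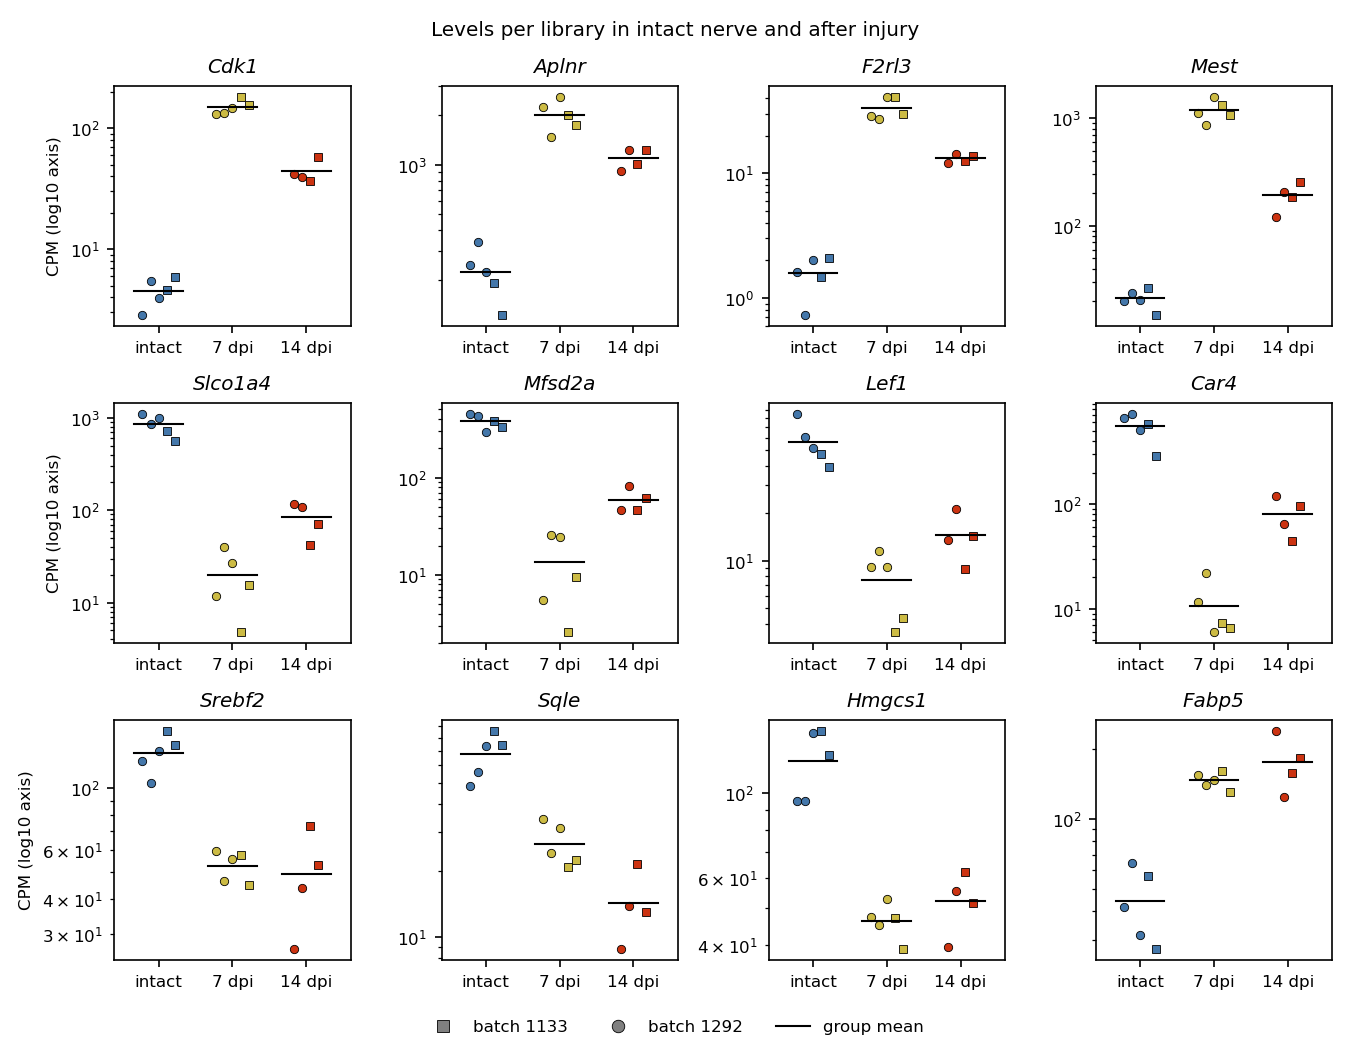
CPM (log10 axis) in each library of intact nerve, 7 dpi and 14 dpi for 12 genes; bars are group means and the symbol shape gives the batch. Cdk1 and Aplnr were intermediate at 14 dpi, Slco1a4, Mfsd2a and Lef1 had risen part of the way from their level at 7 dpi, and Srebf2 and Sqle were no higher on average at 14 than at 7 dpi.

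Barrier transporters had the lowest median of the 41 endothelial lists. Of 20 tested, 13 were called lower and none higher, the median was -1.37, and in 11 the groups did not overlap (4.73% of all genes had every 14 dpi library below every intact one). Mfsd2a, which imports lysolipids and restrains transcytosis in brain endothelium, was at 449, 425, 295, 385 and 331 CPM in intact libraries, 5.57, 25.5, 24.8, 2.57 and 9.57 CPM at 7 dpi and 46.4, 82.8, 46.3 and 62.2 CPM at 14 dpi. It was thus at 16.3% of the intact level at 14 dpi (-2.62 ± 0.45, adjusted p = 8.2e-04) and above its level at 7 dpi (log2 difference 2.31 ± 0.44, adjusted p = 0.00300). Slc2a1, the glucose transporter GLUT1, which perineurial cells also express, went from 2506 ± 303 to 822 ± 283 CPM (-1.64 ± 0.24, adjusted p = 1.8e-04). The amino acid carriers Slc7a5 (-2.05 ± 0.22), its partner Slc3a2 (-1.20 ± 0.18) and the cationic amino acid carrier Slc7a1 (-2.07 ± 0.18) fell as well, and so did the taurine carrier Slc6a6 and the thiamine carrier Slc19a3. The efflux pumps Abcb1a (P-glycoprotein) and Abcg2 had log2 fold changes of -1.35 and -0.73. Slc16a1, the monocarboxylate carrier MCT1, was at 867 ± 277 CPM in intact nerve, 292 ± 144 at 7 dpi and 873 ± 351 at 14 dpi, with a log2 difference from intact of -0.15 ± 0.32, adjusted p = 0.875. 10 of the 20 were higher at 14 than at 7 dpi (5.73% of all genes) and 1, Abcc4, was lower. The perineurial marker sum moved with these falls, and with that list as a covariate 12 of the 20 were called lower, and in batch 1133 alone 7.

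Among 14 tight junction genes 7 fell and none rose, with a median of -0.56, and 6 were higher than at 7 dpi (5.73% of all genes). Lsr, the angulin of junctions where 3 cells meet, was at 103, 126, 78.6, 76.7 and 55.4 CPM in intact libraries and 21.3, 20.4, 11.3 and 17.05 CPM at 14 dpi, with no overlap (-2.23 ± 0.23, adjusted p = 9.1e-06). Cgn, the cytoplasmic adaptor cingulin, fell from 25.3 ± 10.3 to 5.92 ± 2.75 CPM (-2.12 ± 0.38, adjusted p = 0.00119). Ocln, occludin, fell from 72.5 ± 19.8 to 44.4 ± 14.5 CPM (-0.76 ± 0.23, adjusted p = 0.0345) and so did Tjp1, the scaffold ZO-1 (-0.74 ± 0.16, adjusted p = 0.00546). The gap junction gene Gja1, listed with them, fell (-0.53 ± 0.15, adjusted p = 0.0253). The adhesion molecules Jam2 and Jam3 had log2 fold changes of 0.05 and 0.08 (adjusted p = 0.895 and 0.837). Only 2 of the 14 were called with the perineurial covariate and 2 in batch 1133 alone, and 4 without replicate 1 at 14 dpi. Of 11 genes of caveolae and the fenestral diaphragm, 2 rose: Plvap, the diaphragm protein, at 1007, 1926, 808, 541 and 296 CPM against 1896, 1830.2, 1570.4 and 1955 CPM with overlapping groups (1.21 ± 0.31, adjusted p = 0.0169), and Ehd4, an endocytic ATPase (0.90 ± 0.19, adjusted p = 0.00348). Cav1, the coat protein of caveolae, had a log2 fold change of 0.21 ± 0.17, adjusted p = 0.531. The call of Ocln was lost in 6 of the 9 fits that each left out 1 library (adjusted p up to 0.121). That of Gja1 was lost in 1 (adjusted p up to 0.0683). That of Plvap was lost in 1 (adjusted p up to 0.0517). Neither Plvap nor Ehd4 was called with the perineurial covariate (log2 fold changes 1.02 and 0.72, adjusted p = 0.276 and 0.173). The fibroblast covariate gave 0.49 and 0.66 (adjusted p = 0.813 and 0.384) and batch 1292 alone 0.57 and 0.54 (adjusted p = 0.279 and 0.140), again with no call.

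Targets and feedback genes of Wnt signalling were lower, while its receptors and its effector were not called. In the list of 23, 7 fell and 1 rose, with a median of -0.57. Foxq1, a forkhead factor of barrier endothelium, was at 22.1, 14.8, 17.9, 16.2 and 13.3 CPM in intact libraries and 1.56, 0.831, 1.32 and 1.51 CPM at 14 dpi, 7.95% of the intact level (-3.65 ± 0.41, adjusted p = 1.9e-05). Tnfrsf19, the receptor TROY, stood at 108, 97.9, 84.0, 77.7 and 56.1 CPM against 11.7, 15.4, 5.75 and 8.94 CPM (-2.99 ± 0.28, adjusted p = 3.3e-06). The feedback inhibitors Nkd1 (-1.99 ± 0.24, adjusted p = 2.8e-05), Axin2 (-1.83 ± 0.27, adjusted p = 2.1e-04), Apcdd1 (-0.89 ± 0.20, adjusted p = 0.00690) and Znrf3 (-1.02 ± 0.17, adjusted p = 5.7e-04), and the transcription factor Lef1 (-1.89 ± 0.22, adjusted p = 2.9e-05), fell, all without overlap. All 7 were higher than at 7 dpi (5.73% of all genes), and 4.73% of all genes had every 14 dpi library below every intact one. The receptor Fzd4 (-0.17 ± 0.14, adjusted p = 0.545), the coreceptors Lrp5 and Lrp6 (-0.05 and -0.23) and Ctnnb1, beta-catenin (0.15 ± 0.14, adjusted p = 0.634), did not pass. Dkk2, a secreted modulator of Wnt receptors, was the 1 rise, from 3.89 ± 1.88 to 10.2 ± 2.55 CPM (1.54 ± 0.22, adjusted p = 1.5e-04).

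Genes of cholesterol synthesis were lower, and none of those that fell was higher at 14 than at 7 dpi by the test. Of 19 genes of sterol and fatty acid synthesis, 10 fell and none rose. In all 10 every 14 dpi library lay below every intact one (4.73% of all genes). Sqle, squalene epoxidase, was at 48.4, 56.0, 73.1, 85.9 and 74.1 CPM in intact libraries, 34.1, 24.001, 31.2, 20.8 and 22.3 CPM at 7 dpi and 8.78, 13.8, 21.4 and 13.03 CPM at 14 dpi, lower than in intact nerve (-2.26 ± 0.24, adjusted p = 1.4e-05) and lower than at 7 dpi (log2 difference -0.94 ± 0.24, adjusted p = 0.0194). Its fall was called in each of the 21 other settings tried. Fdft1, squalene synthase, was also lower than at both earlier states (log2 fold change -1.47 ± 0.14, adjusted p = 3.5e-06 against intact and -0.72 ± 0.14, adjusted p = 0.00293 against 7 dpi). Hmgcs1, the synthase that makes HMG-CoA, fell from 121 ± 24.7 to 52.2 ± 9.55 CPM (-1.23 ± 0.17, adjusted p = 1.1e-04). Lss, lanosterol synthase, fell from 14.7 ± 2.73 to 4.44 ± 1.66 CPM (-1.74 ± 0.26, adjusted p = 2.4e-04). Srebf2, the transcription factor SREBP2 that switches on this pathway, was at 125, 104, 135, 159.6 and 142 CPM against 26.4, 44.0, 73.0 and 53.0 CPM (-1.50 ± 0.20, adjusted p = 1.0e-04). Insig1, its retention factor, fell (-0.87 ± 0.15, adjusted p = 6.7e-04). Fdps and Idi1 of the isoprenoid steps fell as well. Dhcr7 did not pass (-0.45 ± 0.17, adjusted p = 0.0976). The call of Fdps was lost in 4 of the 9 fits that each left out 1 library (adjusted p up to 0.0793).

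The fatty acid genes of the same list were not called: Srebf1, Fasn, Acaca, Acly, Elovl6, Scd1 and Scd2 had log2 fold changes of -0.21, -0.22, -0.28, 0.18, 0.10, 0.83 and 0.18. With the perineurial covariate 8 of the 19 were called lower, with the fibroblast covariate 4, and in the batches alone 5 (1133) and 9 (1292). SREBP2 binds the sterol regulatory element, and the promoter of Hmgcs1 is shown because it held a match to its core TCACNCCAC, searched on both strands as above and capitalised with CCAAT.
Hmgcs1, chr13:119690101-119690350, plus strand, GRCm38.p6: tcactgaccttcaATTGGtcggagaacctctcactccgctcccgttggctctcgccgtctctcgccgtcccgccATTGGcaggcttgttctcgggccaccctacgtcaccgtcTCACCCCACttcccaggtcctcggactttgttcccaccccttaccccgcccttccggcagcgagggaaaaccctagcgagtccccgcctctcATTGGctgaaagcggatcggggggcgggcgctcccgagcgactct
The sterol element began 137 bases before the start. Of the 11 list genes with a promoter in the RefSeq table it was found in 1, against 1.24% of the promoters of tested genes, and CCAAT in 8 of 11.

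**Figure D4:**
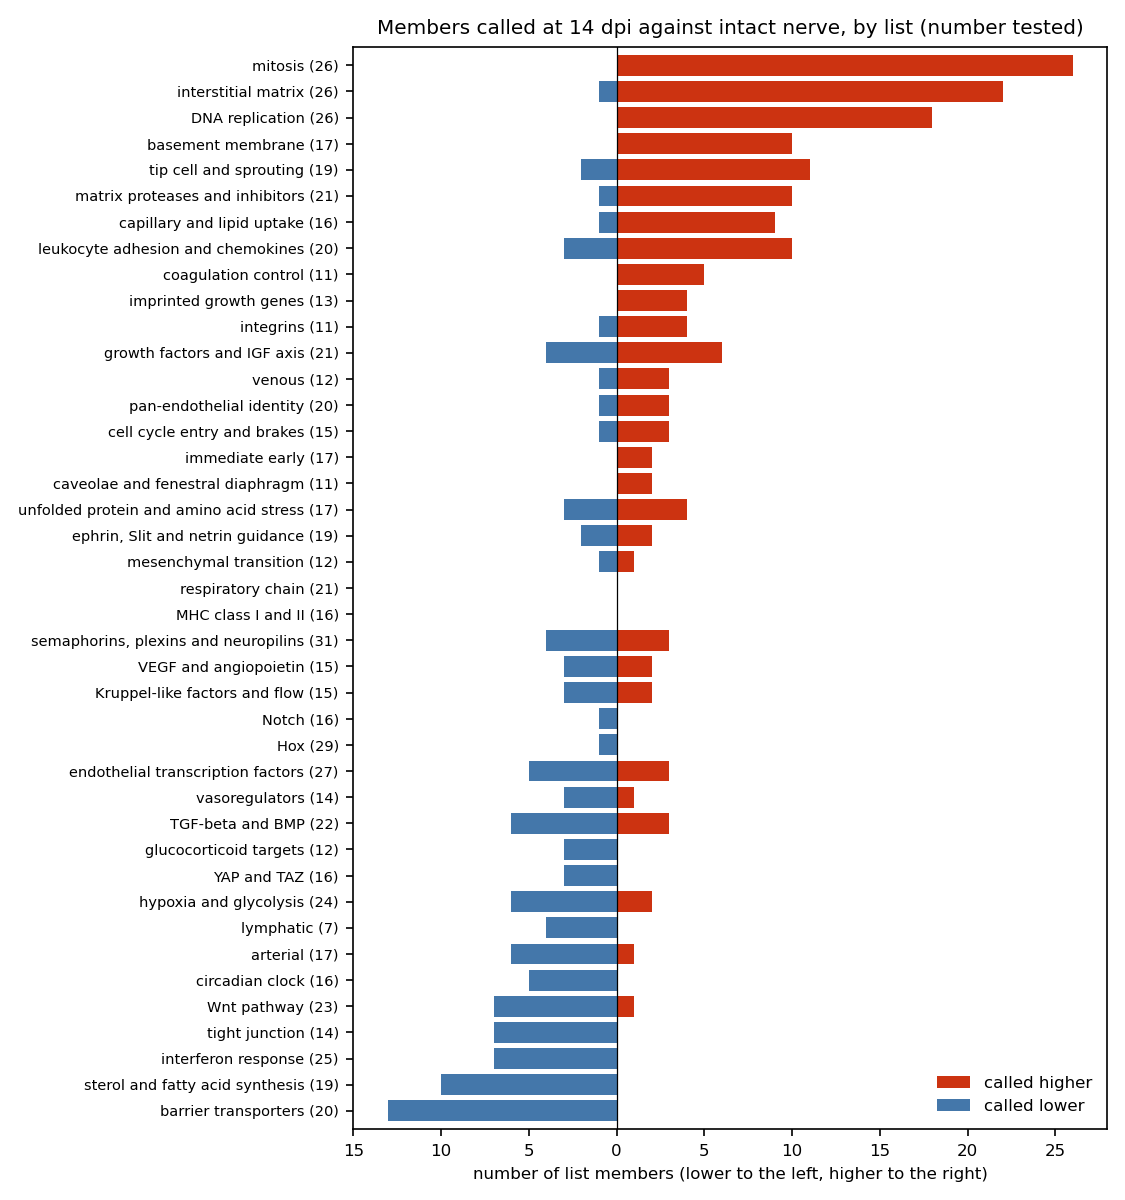
Number of members called higher (to the right) and lower (to the left) at 14 dpi than in intact nerve in each of 41 lists of endothelial genes; the number beside each name is how many were tested. The mitosis and interstitial matrix lists extend furthest to the right, and the barrier transporter and sterol lists furthest to the left.

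Genes of sprouting differed in both directions. Of 19 tip cell genes 11 rose and 2 fell, with a median of 0.91, and 9 were lower than at 7 dpi (4.20% of all genes). Angpt2, the ligand that loosens vessels through Tie2, was at 76.7, 148.1, 75.8, 63.4 and 54.6 CPM in intact nerve against 254, 178, 189.6 and 167 CPM at 14 dpi with no overlap (1.31 ± 0.21, adjusted p = 4.3e-04), and had a mean of 198 ± 32.3 CPM at 7 dpi. Cxcr4, the receptor of migrating tip cells, rose from 1.36 ± 0.602 to 4.08 ± 1.59 CPM (1.72 ± 0.27, adjusted p = 4.2e-04). Esm1, the tip cell proteoglycan, had a log2 fold change of -0.40 ± 0.19, adjusted p = 0.228 and Dll4, the Notch ligand of tip cells, one of -0.16 ± 0.20, adjusted p = 0.734, so neither passed, and Pdgfb, which recruits pericytes, fell (-0.63 ± 0.18, adjusted p = 0.0288). Among receptors of VEGF, Kdr had a log2 fold change of 0.41 ± 0.20, adjusted p = 0.241, Flt1 fell (-0.55 ± 0.14, adjusted p = 0.0157), and Flt4, the receptor for VEGF-C, fell (-0.90 ± 0.22, adjusted p = 0.0125). The coreceptor Nrp1 rose, at 339.8, 459, 385, 311 and 256 CPM against 561, 732, 790.1 and 592 CPM (0.95 ± 0.17, adjusted p = 0.00111), and Plxnd1, its partner receptor for class 3 semaphorins, rose from 98.0 ± 36.1 to 193 ± 53.1 CPM (1.09 ± 0.17, adjusted p = 4.3e-04). Flt4 and Flt1 were not called in batch 1133 alone (log2 fold changes -0.12 and -0.29, adjusted p = 0.857 and 0.669). Neither Nrp1 nor Plxnd1 was called with the perineurial covariate. Of the 19 tip cell genes 4 were called higher with that covariate, 5 with the fibroblast one and 7 in batch 1292 alone. Of 16 Notch pathway genes only Hey2, a target gene, passed (-1.12 ± 0.33, adjusted p = 0.0347). The call of Pdgfb was lost in 4 of the 9 fits that each left out 1 library (adjusted p up to 0.0708). That of Flt1 was lost in 1 (adjusted p up to 0.0596). That of Flt4 was lost in 1 (adjusted p up to 0.0679). That of Hey2 was lost in 6 (adjusted p up to 0.122).

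Of 17 arterial genes 6 fell and 1, the netrin receptor Unc5b, rose (0.85 ± 0.23, adjusted p = 0.0212). Bmx, a kinase of arterial endothelium, was at 215, 179, 194, 130.9 and 92.3 CPM in intact libraries and 48.2, 50.6, 20.2 and 28.5 CPM at 14 dpi (-2.07 ± 0.23, adjusted p = 1.4e-05). Edn1, the vasoconstrictor endothelin-1, was at 283, 348, 218, 353 and 184 CPM, 126, 163, 188, 111 and 82.7 CPM at 7 dpi and 100, 75.8, 62.6 and 58.7 CPM at 14 dpi. It was lower than in intact nerve (-1.89 ± 0.22, adjusted p = 2.7e-05) and lower than at 7 dpi (log2 difference -0.80 ± 0.22, adjusted p = 0.0262). Cxcl12, a chemokine of arterial cells, fell (-1.01 ± 0.17, adjusted p = 6.6e-04), and so did Nebl (-1.59 ± 0.32, adjusted p = 0.00278) and Sox17, the arterial transcription factor (-0.60 ± 0.16, adjusted p = 0.0190). The arterial connexins Gja4 and Gja5 and the ligand Efnb2 had log2 fold changes of 0.59, 0.67 and 0.21 and did not pass. The median of the arterial list was 0.22 in batch 1133 and -0.54 in batch 1292. In batch 1133 alone 2 arterial genes were called lower, with the perineurial covariate 3 and with the fibroblast one 2. The rises numbered 3 without intact replicate 2. Among 12 venous genes, Aplnr, the receptor of apelin, was at 245, 339, 221, 191.4 and 121 CPM in intact nerve against 922, 1224, 1006 and 1226 CPM at 14 dpi, 5.15-fold higher (2.37 ± 0.23, adjusted p = 4.8e-06), and its ligand Apln, of the tip cell list, rose too (1.76 ± 0.20). Selp and Il1r1 also rose (6 venous genes rose without intact replicate 2 and 5 without replicate 2 at 14 dpi), while Nr2f2, the venous fate factor COUP-TFII, was lower at 178, 242, 306 and 264 against 449, 293, 578, 526 and 434 CPM (-0.90 ± 0.23, adjusted p = 0.0148). Of 7 lymphatic genes 4 fell, among them Reln (-1.21 ± 0.35, adjusted p = 0.0312) and Mmrn1 (-1.37 ± 0.29, adjusted p = 0.00484), with overlapping groups. The median of the lymphatic list was -0.12 in batch 1133 and -1.55 in batch 1292. In batch 1133 alone Reln was at a log2 fold change of -0.20 (adjusted p = 0.824) and Mmrn1 at -0.43 (adjusted p = 0.513). None of the 4 falls was called there or with the perineurial covariate. The call of Unc5b was lost in 2 of the 9 fits that each left out 1 library (adjusted p up to 0.0792). That of Sox17 was lost in 2 (adjusted p up to 0.0760). That of Nr2f2 was lost in 2 (adjusted p up to 0.0559). That of Reln was lost in 6 (adjusted p up to 0.116). Nr2f2 had a log2 fold change of -0.15 with the perineurial covariate (adjusted p = 0.784) and was not called in either batch alone.

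Several capillary genes, among them genes of fatty acid handling, rose. Of 16, 9 rose and 1 fell, with a median of 0.81. Against 7 dpi 11 were higher (5.73% of all genes). Fabp5, a fatty acid carrier of the cytoplasm, was at 41.6, 64.8, 31.5, 56.8 and 27.4 CPM in intact libraries and 239, 125, 158 and 184 CPM at 14 dpi, with no overlap (2.00 ± 0.24, adjusted p = 2.7e-05). Pparg, the nuclear receptor that induces such genes, was at 15.6, 34.1, 19.7, 28.9 and 15.9 CPM, 25.7, 30.3, 31.9, 26.4 and 21.5 CPM at 7 dpi and 69.6, 46.2, 38.5 and 39.7 CPM at 14 dpi (log2 difference 1.09 ± 0.22, adjusted p = 0.00351 from intact and 0.85 ± 0.22, adjusted p = 0.0229 from 7 dpi). Gpihbp1, which holds lipoprotein lipase on the capillary wall, rose from 129 ± 32.6 to 258 ± 53.9 CPM (1.01 ± 0.19, adjusted p = 0.00153). Rgcc, a regulator of the cell cycle, rose from 87.7 ± 23.7 to 226 ± 41.2 CPM (1.37 ± 0.19, adjusted p = 1.3e-04). Cd36, the fatty acid translocase, had overlapping groups, 952, 1712, 1134, 961 and 571 against 2056, 1652, 1327 and 1368 CPM (0.69 ± 0.20, adjusted p = 0.0297). The water channel Aqp1 rose (1.05 ± 0.29, adjusted p = 0.0261). Car4, the capillary carbonic anhydrase, was the fall: 658, 724, 506, 575 and 290.1 CPM in intact nerve, a mean of 10.7 ± 6.72 CPM at 7 dpi and 119, 64.4, 44.9 and 96.1 CPM at 14 dpi (-2.68 ± 0.35, adjusted p = 7.4e-05). The fibroblast marker sum lay above every intact library of its own batch in 3 of the 4 libraries at 14 dpi, and with that list as a covariate 1 of the 16 was called higher, 2 with the perineurial one and 5 with the Y-linked one. In batch 1133 alone 2 were called higher. The call of Cd36 was lost in 4 of the 9 fits that each left out 1 library (adjusted p up to 0.0770). That of Aqp1 was lost in 4 (adjusted p up to 0.0920).

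Matrix genes were mostly higher. Of 17 basement membrane genes 10 rose and none fell (median 1.02). Col18a1, the source of endostatin, was at 182, 288, 247, 150.3 and 137 CPM in intact libraries and 617, 997, 1155 and 936 CPM at 14 dpi (2.25 ± 0.25, adjusted p = 1.5e-05). Nid2, nidogen-2, was at 111, 115, 142, 118 and 123 against 145, 353, 633 and 445 CPM (1.56 ± 0.27, adjusted p = 7.6e-04). Lamb1, a laminin chain, rose (2.64 ± 0.29), and its counterpart of mature membrane, Lamb2, had a log2 fold change of -0.43 ± 0.24, adjusted p = 0.308. Col4a5 rose from 9.36 ± 4.17 to 25.6 ± 8.52 CPM, having had a mean of 7.81 ± 2.44 CPM at 7 dpi (log2 difference 1.77 ± 0.26, adjusted p = 4.6e-04 from 7 to 14 dpi). Of 26 interstitial matrix genes 22 rose and 1 fell (median 1.80). Col3a1 went from 1013 ± 281 to 7339 ± 2593 CPM (2.73 ± 0.30, adjusted p = 1.5e-05). The elastic fibre gene Mfap2 rose from 10.8 ± 5.29 to 116 ± 59.2 CPM (3.13 ± 0.43, adjusted p = 1.1e-04) and the crosslinking enzyme gene Loxl1 from 8.87 ± 3.67 to 75.2 ± 32.4 CPM (2.92 ± 0.37, adjusted p = 5.1e-05). Vcan, the proteoglycan versican, rose from 5.93 ± 4.83 to 48.8 ± 8.07 CPM (3.11 ± 0.37, adjusted p = 3.3e-05). Fmod, fibromodulin, fell from 369.9 ± 44.8 to 96.6 ± 51.3 CPM (-2.13 ± 0.39, adjusted p = 0.00133).

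Fibroblast genes moved with these lists. 9 of 14 fibroblast markers rose, among them Col14a1 (3.23 ± 0.40, adjusted p = 4.6e-05), Dpt (2.93 ± 0.42, adjusted p = 1.8e-04) and Pi16 (2.19 ± 0.39, adjusted p = 0.00114). Pdgfra and Dcn, which mark fibroblasts broadly, had log2 fold changes of -0.12 ± 0.31, adjusted p = 0.893 and -0.03 ± 0.35, adjusted p = 0.983, so not every marker of the list was called. With the mean of this list as a covariate, 7 of the 26 interstitial and 5 of the 17 basement membrane genes were called higher. Whether sorted endothelial cells or other cells in the sort made this RNA was not tested. Of 21 matrix proteases and inhibitors 10 rose (6 with the perineurial and 3 with the fibroblast covariate) and 1 fell. Adamts4, an aggrecanase, rose from 53.3 ± 31.5 to 186 ± 53.4 CPM (1.88 ± 0.29, adjusted p = 3.0e-04). Mmp14, the membrane-bound collagenase, rose from 149 ± 64.6 to 497 ± 287 CPM (1.503 ± 0.22, adjusted p = 2.3e-04). Timp1, an inhibitor, rose (1.99 ± 0.21) and Timp3, another, fell (-0.77 ± 0.15, adjusted p = 0.00261). Of 11 integrins, Itgb1, Itga5, Itgb3 and Itga2 rose, Itgb3, the beta chain of the vitronectin receptor, from 16.8 ± 7.08 to 41.3 ± 12.04 CPM (1.48 ± 0.22, adjusted p = 2.7e-04). Itgb1 and Itga5 were not called in either batch alone or with the perineurial or fibroblast covariate (adjusted p from 0.0756 to 0.357). Itga2 was not called in batch 1133 alone (adjusted p = 0.152) or with the perineurial covariate (adjusted p = 0.0835). Itgb3 was called in each of the 21 other settings tried. Itgb4, which also marks perineurial cells, fell from 1403 ± 331 to 400.5 ± 146 CPM (-1.85 ± 0.25, adjusted p = 9.2e-05).

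Of 20 genes that recruit leukocytes, 10 rose and 3 fell. Sele, E-selectin, was at 57.7, 81.5, 38.7, 7.92 and 16.2 CPM in intact nerve against 162, 184, 179.8 and 168 CPM at 14 dpi, so all 4 libraries lay above the highest intact one (2.46 ± 0.39, adjusted p = 4.3e-04). Ccl7, a monocyte chemokine, rose from 7.97 ± 3.60 to 38.4 ± 20.96 CPM (2.13 ± 0.38, adjusted p = 0.00116). Il6, an inflammatory cytokine, rose from 31.2 ± 21.1 to 120.5 ± 55.6 CPM (2.07 ± 0.28, adjusted p = 1.1e-04) and the adhesion molecule Icam1 rose too (1.00 ± 0.21, adjusted p = 0.00420), while Vcam1 did not pass (-0.01 ± 0.19, adjusted p = 0.991). Cx3cl1, the membrane-bound fractalkine, fell from 156 ± 59.0 to 57.8 ± 9.03 CPM (-1.32 ± 0.21, adjusted p = 3.9e-04). The 10 rises of this list became 2 with the fibroblast covariate, 6 with the perineurial one and 5 in batch 1292 alone. Of 25 interferon response genes 7 fell and none rose, with a median of -0.46. Ifit3 was at 117, 107, 85.9, 112 and 57.6 CPM in intact libraries and 45.5, 21.3, 32.2 and 33.6 CPM at 14 dpi (-1.51 ± 0.27, adjusted p = 0.00115). Irf7, the transcription factor that amplifies interferon, was at 190.8, 273, 124, 156 and 83.9 against 75.2, 60.0, 54.0 and 64.0 CPM (-1.30 ± 0.25, adjusted p = 0.00242). Ifit family members may share reads. In batch 1133 alone 1 interferon gene was called lower and with the fibroblast covariate 2, against 12 with DESeq2. Stat2 did not pass (-0.43). None of 16 MHC genes was called by edgeR; H2-K1 had a log2 fold change of -0.03 ± 0.18, adjusted p = 0.964, and 3 of the 16 had an unadjusted p under 0.05, with 3 called by DESeq2.

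Several genes of BMP signalling, a pathway that helps keep endothelium quiescent, were lower. Of 22 TGF-beta and BMP genes 6 fell and 3 rose. Bmp6, a ligand, was at 24.5, 15.3, 19.998, 39.5 and 34.3 CPM in intact libraries and 3.999, 5.86, 13.1 and 10.98 CPM at 14 dpi (-1.79 ± 0.25, adjusted p = 1.2e-04). The receptor ALK1, Acvrl1, fell (-0.68 ± 0.16, adjusted p = 0.0101), and so did its partner receptor Bmpr2 (-0.39 ± 0.12, adjusted p = 0.0378) and the target genes Id1 (-0.88 ± 0.20, adjusted p = 0.00651) and Id3 (-0.80 ± 0.16, adjusted p = 0.00289). Smad9, a BMP effector of low abundance, was at 6.05, 2.94, 6.13, 5.44 and 3.78 CPM against 0.104, 0.189, 1.05 and 0.538 CPM (-3.33 ± 0.97, adjusted p = 0.0329). Of the 22 genes 1 was called lower in batch 1133 alone, and 3 each in batch 1292 alone and with either covariate. The activin subunit Inhba, the secreted glycoprotein gene Fstl1 and the repressor Skil rose, Fstl1 from 606 ± 105 to 1451 ± 356 CPM (1.19 ± 0.18, adjusted p = 2.9e-04). Tgfb1, Tgfb2, Tgfbr1 and Tgfbr2 were not called, with log2 fold changes between -0.10 (Tgfb2) and 0.39 (Tgfb1). Of 15 Kruppel-like factors and flow-responsive genes 2 rose and 3 fell, with a median of -0.02. Cyp1b1, a cytochrome P450, rose (1.602 ± 0.23, adjusted p = 1.9e-04), as did Klf10 (0.71 ± 0.19, adjusted p = 0.0187). Klf2 (-0.71 ± 0.22, adjusted p = 0.0460) and Klf4 (-0.71 ± 0.18, adjusted p = 0.0128) fell, and Klf15 of the same family fell further (-2.35 ± 0.38, adjusted p = 5.0e-04). Nos3, endothelial nitric oxide synthase, had a log2 fold change of 0.36 ± 0.20, adjusted p = 0.304. The call of Bmpr2 was lost in 5 of the 9 fits that each left out 1 library (adjusted p up to 0.0982). That of Smad9 was lost in 6 (adjusted p up to 0.121). That of Inhba was lost in 2 (adjusted p up to 0.0643). That of Klf10 was lost in 1 (adjusted p up to 0.0511). That of Klf2 was lost in 7 (adjusted p up to 0.163). That of Klf4 was lost in 1 (adjusted p up to 0.0532).

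Some targets of glucocorticoids and some clock genes fell. Of 12 glucocorticoid targets 3 fell and none rose (5.09% of all genes were called lower). Tsc22d3, the glucocorticoid-induced leucine zipper GILZ, was at 518, 615, 466, 776 and 558 CPM in intact libraries, 116, 161, 100.1, 93.8 and 79.2 CPM at 7 dpi and 184, 185, 243 and 260.1 CPM at 14 dpi (-1.44 ± 0.21, adjusted p = 2.2e-04). Fkbp5, a chaperone of the receptor, fell (-0.70 ± 0.21, adjusted p = 0.0350). The receptor Nr3c1 had a log2 fold change of 0.05 ± 0.11, adjusted p = 0.878. Of 16 clock genes 5 fell and none rose, with a median of -0.67; 8 fell without intact replicate 4 or replicate 3 at 14 dpi and 3 without replicate 2 or replicate 4 at 14 dpi. Hlf, a clock output factor, was at 46.9, 31.4, 28.1, 22.6 and 32.4 CPM in intact libraries and 5.09, 6.38, 7.10 and 4.59 CPM at 14 dpi (-2.43 ± 0.23, adjusted p = 4.0e-06). Its relative Tef fell (-1.05 ± 0.20, adjusted p = 0.00227). Nr1d1, REV-ERB alpha, fell (-1.07 ± 0.29, adjusted p = 0.0209), and the core genes Clock and Arntl had log2 fold changes of -0.46 and 0.31 and did not pass. The labels give no time of day for the collections. With either covariate or in batch 1133 alone 1 of the 16 was called. The call of Fkbp5 was lost in 5 of the 9 fits that each left out 1 library (adjusted p up to 0.120). That of Nr1d1 was lost in 2 (adjusted p up to 0.115).

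The coagulation list had 5 rises of 11 and no fall; 3 rose without intact replicate 1, and also without replicate 3 or without replicate 4 at 14 dpi. With the Y-linked covariate 3 rose, and 2 with the perineurial or fibroblast one or in batch 1292 alone. F2rl3, the thrombin receptor PAR4 (chromosome 8, 72761880-72763874, GRCm38), was at 1.61, 0.723, 2.02, 1.46 and 2.11 CPM in intact libraries, 28.9, 27.3, 40.8, 40.8 and 29.9 CPM at 7 dpi and 12.05, 14.4, 12.4 and 13.8 CPM at 14 dpi. It was 8.14-fold above intact, without overlap (3.02 ± 0.23, adjusted p = 9.1e-07). F8, clotting factor VIII, rose from 3.19 ± 1.41 to 10.7 ± 3.68 CPM (1.90 ± 0.27, adjusted p = 1.6e-04). Pros1, the anticoagulant protein S, rose too (0.79 ± 0.19, adjusted p = 0.0110). Thbd, thrombomodulin, and Procr, the protein C receptor, had log2 fold changes of -0.06 and 0.31 (adjusted p = 0.910 and 0.39). Of 14 vasoregulators, Npr3, the natriuretic peptide clearance receptor, fell from 26.2 ± 9.18 to 9.93 ± 2.19 CPM (-1.33 ± 0.24, adjusted p = 0.00146) and Calcrl, the receptor of adrenomedullin, rose (0.77 ± 0.14, adjusted p = 0.00138), the 1 rise of the list, against 6 without intact replicate 2.

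Growth factor genes differed in both directions. Igf1 was at 24.1, 39.7, 27.9, 20.2 and 12.96 CPM in intact libraries and 169, 127.5, 122 and 109.5 CPM at 14 dpi, 5.63-fold higher (2.49 ± 0.20, adjusted p = 9.1e-07), close to its mean of 149 ± 27.2 CPM at 7 dpi (log2 difference -0.13 ± 0.19, adjusted p = 0.784 from it). Igfbp3, an IGF-binding protein, rose (1.496 ± 0.29, adjusted p = 0.00232) and Mdk, midkine, from 8.85 ± 3.51 to 41.0 ± 15.9 CPM (2.04 ± 0.37, adjusted p = 0.00128). Ptn, pleiotrophin, the relative of midkine, moved the other way, from 484, 381, 426, 331 and 160.1 CPM to 111, 94.2, 35.7 and 48.5 CPM (-2.29 ± 0.23, adjusted p = 7.2e-06). The PDGF ligands Pdgfa (-0.997 ± 0.23, adjusted p = 0.00866) and Pdgfc (-1.68 ± 0.21, adjusted p = 5.1e-05) fell. Bdnf, a neurotrophin, was at 0.367, 0.516, 0.0381, 1.19 and 2.50 CPM against 6.02, 4.61, 2.98 and 2.01 CPM with overlapping groups (2.27 ± 0.69, adjusted p = 0.0410). Of 13 imprinted growth genes 4 rose. Mest was at 20.1, 23.9, 20.6, 26.4 and 14.6 CPM in intact libraries, 1114, 863, 1575, 1335 and 1081 CPM at 7 dpi and 120.5, 208, 184 and 253 CPM at 14 dpi, lower than at 7 dpi (log2 difference -2.66 ± 0.24, adjusted p = 1.5e-05) and above intact nerve (3.16 ± 0.23, adjusted p = 6.5e-07). Dlk1, a membrane protein related to the Notch ligands, rose from 1.91 ± 1.13 to 12.3 ± 5.30 CPM (2.72 ± 0.44, adjusted p = 4.7e-04), with a mean of 5.32 ± 1.78 CPM at 7 dpi. Meg3, a noncoding RNA of the same locus, rose (1.82 ± 0.34, adjusted p = 0.00158), and H19 and Igf2 had log2 fold changes of 0.72 ± 0.39, adjusted p = 0.291 and 0.55 ± 0.51, adjusted p = 0.615. The call of Bdnf was lost in 6 of the 9 fits that each left out 1 library (adjusted p up to 0.128). The 6 growth factor rises became 3 with the perineurial covariate, in batch 1292 alone or without the batch term, and 2 with the fibroblast covariate. With the latter Mdk had a log2 fold change of -0.047 (adjusted p = 0.992), and Igfbp3 was not called (adjusted p = 0.298). Dlk1 and Meg3 were not called with the perineurial one (adjusted p = 0.0893 and 0.104). Igf1, Ptn and Mest were called in each of the 21 other settings tried.

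Most pan-endothelial identity genes did not pass the test. Of 20, 3 rose (6 without intact replicate 2) and 1 fell, with a median of 0.31. Clec14a, a C-type lectin of sprouting endothelium, was the exception in size, at 174, 240.3, 131.1, 93.4 and 75.4 CPM in intact libraries against 590.1, 478, 359 and 489.9 CPM at 14 dpi (1.87 ± 0.21, adjusted p = 1.6e-05). Cdh5 (0.51 ± 0.16, adjusted p = 0.0438) and Emcn, endomucin (0.66 ± 0.20, adjusted p = 0.0345), rose with overlapping groups, and Flt1 was the fall. The median of this list was 0.62 in batch 1133 and 0.03 in batch 1292, and Pecam1 was lower in the intact libraries of batch 1133 (replicates 4 and 5) than in the other intact libraries. Of 27 endothelial transcription factors 3 rose and 5 fell. Without 1 library the rises numbered up to 5 (without intact replicate 2 or replicate 1 at 14 dpi), and the falls 3 without intact replicate 1 and 2 without replicate 2 at 14 dpi. Foxq1, Nr2f2 and Sox17, given above, fell, and so did Foxc2 (-1.23 ± 0.25, adjusted p = 0.00283) and Foxf1 (-0.66 ± 0.20, adjusted p = 0.0440). The 5 falls became 1 with the perineurial covariate, 2 with the fibroblast one, 1 in batch 1133 alone and 3 in batch 1292 alone. Foxc2 had a log2 fold change of -0.46 with the perineurial covariate (adjusted p = 0.375). Meox1 rose from 42.2 ± 22.2 to 109 ± 25.4 CPM (1.504 ± 0.28, adjusted p = 0.00147). Prdm1 rose from 10.1 ± 2.48 to 25.99 ± 7.09 CPM (1.38 ± 0.22, adjusted p = 4.1e-04) and Ets1 rose as well (0.65 ± 0.17, adjusted p = 0.0178), while Erg and Fli1 had log2 fold changes of 0.45 and 0.28 and were not called. The call of Cdh5 was lost in 7 of the 9 fits that each left out 1 library (adjusted p up to 0.177). That of Emcn was lost in 4 (adjusted p up to 0.131). That of Foxf1 was lost in 7 (adjusted p up to 0.113). That of Ets1 was lost in 1 (adjusted p up to 0.0511).

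Other lists had few calls, to be read against the 6.86% of all genes called higher and the 5.09% called lower. The 21 respiratory chain genes had none (median -0.07; 0 at an unadjusted p under 0.05, and 1 call by DESeq2). Of 24 hypoxia and glycolysis genes 2 rose and 6 fell, Ndrg1, a stress and myelin gene, from 1588 ± 193 to 749 ± 162 CPM (-1.07 ± 0.18, adjusted p = 6.3e-04) and Pfkfb3, the activator of glycolysis in sprouting cells, from 121 ± 65.0 to 45.4 ± 8.70 CPM (-1.15 ± 0.28, adjusted p = 0.0110), with Ldha, lactate dehydrogenase, higher (0.61 ± 0.16, adjusted p = 0.0211). In batch 1133 alone edgeR called 0 falls of this list (2 at an unadjusted p under 0.05), and it had 2 with the perineurial and 1 with the fibroblast covariate. Of 17 stress genes, the endoplasmic reticulum chaperones Calr, Pdia4 and Pdia6 and the synthetase Asns rose, and Chac1, Trib3 and Herpud1 fell (5 of the list fell without intact replicate 5). None of these 4 rises was called in either batch alone or with the perineurial or fibroblast covariate. With the fibroblast covariate their log2 fold changes ran from 0.07 (Calr, adjusted p = 0.977) to 0.42 (Pdia6, adjusted p = 0.719). None of the 3 falls was called in batch 1133 alone or with the fibroblast covariate. Of 16 YAP and TAZ genes 3 fell, Amotl2 furthest (-1.11 ± 0.18, adjusted p = 4.9e-04). Of 12 mesenchymal transition genes, S100a4 rose from 2.24 ± 0.953 to 12.6 ± 1.85 CPM (2.62 ± 0.27, adjusted p = 9.5e-06). Acta2, smooth muscle actin, fell from 755 ± 266 to 211 ± 58.1 CPM (-1.84 ± 0.26, adjusted p = 1.5e-04), and Snai1, Snai2 and Twist1 had log2 fold changes of 0.53, 0.53 and 0.17 without passing. Among 17 immediate early genes, a class that tissue dissociation can also induce, Egr2 (1.08 ± 0.25, adjusted p = 0.00769) and Nr4a1 (0.77 ± 0.23, adjusted p = 0.0402) rose. Neither was called in batch 1292 alone or with the perineurial or fibroblast covariate (Egr2 at 0.36 with the latter, adjusted p = 0.836). Fos had a log2 fold change of -0.10 ± 0.19, adjusted p = 0.842 and Jun one of 0.06 ± 0.20, adjusted p = 0.918. Of 31 semaphorin family genes 3 rose (Plxnd1, Nrp1 and Sema6d) and 4 fell (Plxnb1, Sema3b, Sema3d and Sema7a), 9.68% and 12.9% of the list. Sema3d, a secreted guidance cue, fell from 107 ± 62.0 to 35.3 ± 6.11 CPM (-1.51 ± 0.32, adjusted p = 0.00405). With the perineurial covariate its log2 fold change was -0.31 (adjusted p = 0.645), and none of these semaphorin family calls was kept. Of 29 Hox genes 1, Hoxb9, fell (-0.63 ± 0.16, adjusted p = 0.0150). The call of Pfkfb3 was lost in 2 of the 9 fits that each left out 1 library (adjusted p up to 0.0724). That of Ldha was lost in 2 (adjusted p up to 0.0663). That of Calr was lost in 1 (adjusted p up to 0.0930). That of Asns was lost in 1 (adjusted p up to 0.0684). That of Trib3 was lost in 4 (adjusted p up to 0.146). That of Herpud1 was lost in 1 (adjusted p up to 0.0721). That of Nr4a1 was lost in 7 (adjusted p up to 0.105). That of Sema6d was lost in 8 (adjusted p up to 0.137). That of Sema3b was lost in 2 (adjusted p up to 0.0728). That of Sema7a was lost in 3 (adjusted p up to 0.0707). That of Hoxb9 was lost in 1 (adjusted p up to 0.0542).

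Markers of nerve cells other than endothelium gave the last differences. Of 13 Schwann cell markers 7 rose and 1 fell; 2 rose in batch 1292 alone and 1 with the fibroblast covariate. Ngfr, the receptor p75 of repair Schwann cells, rose from 9.16 ± 4.55 to 57.7 ± 24.8 CPM (2.53 ± 0.36, adjusted p = 1.7e-04). S100b fell (-1.22 ± 0.30, adjusted p = 0.0127). Of 7 perineurial markers Itgb4, Lypd2, Ntng1 and Perp fell, Ntng1 from 148.3 ± 43.4 to 43.4 ± 16.9 CPM (-1.88 ± 0.36, adjusted p = 0.00220). Cldn1, the claudin of the perineurial sheath, had a log2 fold change of -0.34 ± 0.32, adjusted p = 0.619. Against 7 dpi 6 of the 7 perineurial markers were higher (5.73% of all genes). Of 12 mural markers Cspg4, the pericyte antigen NG2, fell (-1.23 ± 0.24, adjusted p = 0.00235) with Acta2, and Pdgfrb and Rgs5 had log2 fold changes of -0.35 and 0.69. Ptprc, the gene of the CD45 antigen used to deplete leukocytes, was at 0.0367, 0.620, 0, 0.612 and 3.19 CPM in intact nerve against 2.08, 2.08, 8.40 and 0.215 CPM at 14 dpi (2.18 ± 0.99, adjusted p = 0.189). The part of these cells in the differences above was not tested beyond the covariate values given. The call of Lypd2 was lost in 7 of the 9 fits that each left out 1 library (adjusted p up to 0.0945).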

How the data were processed

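The table deposited by the authors holds raw whole-number counts per gene. Per the submitters' processing notes, Trimmomatic 0.39, STAR 2.5.3a, featureCounts 1.6.4, Cell Ranger 3.0.2 and the mouse build mm10 (GRCm38) were used, with no role given. The sources used here do not state the annotation release, the strandedness or the handling of multi-mapping reads. Genes that overlap, lie antisense or have near-identical copies may share reads. The depth was 19057029 to 34181449 counts per library, and low genes rest on few counts.

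The 14 Tomato libraries were fitted together in R 4.3.3 with edgeR 4.0.16: filterByExpr, which kept 20409 of 55376 genes, TMM scaling, a model of group and batch, robust quasi-likelihood fits and F tests. Genes were called at a Benjamini-Hochberg adjusted p under 0.05 over all genes tested. The SE of a log2 fold change is its size divided by the square root of F. CPM values use TMM-scaled library sizes. The script was tested on simulated data. No pair of libraries of a group agreed within sampling noise, so none was counted as 1 sample. Alternatives used DESeq2 1.42.0, other scalings, filters, covariates and libraries.

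Genes were placed in 50 lists, with no test of any list. The text gives the counts called for most lists and the median for some. It gives neither for several, among them the VEGF and angiopoietin, ephrin and Slit, erythrocyte and other leukocyte lists. The naming rule took the 15 greatest rises and falls among called genes whose average log2 CPM reached 3, with the same sign in both batches and a gene symbol. From each list it took the first 3 symbols and up to 5 rises and 5 falls. Of the 250 genes named, 42 lie outside this rule (members of the lists such as Cdc20, Mcm4, Slc7a5, Fdft1, Ctnnb1, Dll4 and Scd2) and were chosen after their values were seen. The members and lists were chosen with earlier results of these data known. Promoters are from RefSeq, GRCm38.p6.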

Additional observations from a re-analysis of the deposited data

Results flagged for a closer look

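In each group the highest or lowest library was compared with the rest for every gene named and for the marker sums, 518 group tests in all. In 21 of them 1 library lay further from its nearest neighbour than Dixon's 95% limit allows, and chance alone gives about 1 in 20. The 21 do not exceed that share, so the items below are a description only. Intact replicate 1 was far above the other intact libraries for Erg (66.2 CPM against 40.7 to 46.8 CPM in the others). Intact replicate 2 was far above the other intact libraries for Adamts4 (109 CPM against 30.7 to 48.1 CPM in the others), Angpt2 (148.1 CPM against 54.6 to 76.7 CPM in the others), Il6 (68.2 CPM against 16.1 to 27.5 CPM in the others), Mfap4 (0.981 CPM against 0 to 0.272 CPM in the others), Pi16 (9.14 CPM against 1.8 to 3.75 CPM in the others) and Prdm1 (14.4 CPM against 8.49 to 10.1 CPM in the others). Intact replicate 4 was far above the other intact libraries for Timp1 (21.7 CPM against 9.61 to 12.8 CPM in the others). Intact replicate 5 was far above the other intact libraries for Ptprc (3.19 CPM against 0 to 0.62 CPM in the others). Intact replicate 5 was far below the other intact libraries for Ndrg1 (1249 CPM against 1631 to 1724 CPM in the others). Replicate 1 at 14 dpi was far above the other 14 dpi libraries for Acta2 (297 CPM against 169 to 189.6 CPM in the others), Chac1 (2.28 CPM against 0.782 to 0.944 CPM in the others) and Il6 (203 CPM against 85.8 to 100.001 CPM in the others). Replicate 2 at 14 dpi was far above the other 14 dpi libraries for Ets1 (290.4 CPM against 226 to 232 CPM in the others). Replicate 2 at 14 dpi was far below the other 14 dpi libraries for Jam3 (36 CPM against 43.8 to 44.5 CPM in the others). Replicate 3 at 14 dpi was far above the other 14 dpi libraries for C1qb (78.9 CPM against 0.831 to 3.25 CPM in the others), Ctss (188 CPM against 0.779 to 4.92 CPM in the others), Mmp12 (115 CPM against 0.312 to 0.68 CPM in the others), Nr4a1 (1551 CPM against 1247 to 1269.7 CPM in the others) and the macrophage marker sum (1350.0 CPM against 42.1 to 68.4 CPM in the others). Replicate 3 at 14 dpi was far below the other 14 dpi libraries for Nox4 (15.5 CPM against 24.9 to 26.6 CPM in the others).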

How the results depend on the processing

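Of the genes named, 196 were called. Batch 1133 alone lost 92 of these calls, batch 1292 alone 56, the test against a 1.5-fold change 71 and the Y-linked covariate 28. The perineurial covariate lost 92 and turned the sign of 3, and the fibroblast covariate lost 111 and turned that of 1. The other fits lost 2 with library sizes alone, 1 with DESeq2, 14 with no filter on low counts, 6 with only the intact and 14 dpi libraries and 32 without the batch term. Of the counts per list, the fibroblast covariate moved 20 by over 1.5 times, the perineurial covariate 14, batch 1133 alone 13, the 1.5-fold test 12, batch 1292 alone 11 and any other setting at most 6. For the count of genes higher at 14 dpi, the fits that left out 1 library gave 1025 to 1467, and for the count of genes lower 670 to 1230, the lowest without replicate 2 at 14 dpi. DESeq2 called 1718 genes lower, and 676 were lower without the batch term. Batch 1133 alone gave 616 higher and 179 lower, and batch 1292 alone 719 higher. A test against a 1.5-fold change left 536 higher and 359 lower. The perineurial covariate left 672 higher and 278 lower, and the fibroblast covariate 257 and 423. Under the perineurial covariate the sign turned for Cldn1 (log2 fold change 1.00), Dcn (1.39), Lypd2 (0.45), Pdgfra (1.07), S100b (0.015), Sema3b (0.044) and Slc16a1 (1.15), and under the fibroblast covariate for Mdk (-0.047); the cause was not tested. DESeq2 called 12 interferon genes lower against 7, 9 clock genes against 5 and 7 YAP and TAZ genes against 3. Calls of named genes were also lost when 1 library was left out, with fewer samples in the fit. Without intact replicate 1 this held for Bdnf, Bmpr2, Cd36, Emcn, Fkbp5, Foxf1, Hey2, Klf2, Ldha, Lypd2, Mmp12, Nr4a1, Ocln, Pdgfb, Reln, Sema6d, Sema7a, Smad9, Sox17, Trib3 and Unc5b. Without intact replicate 2 this held for Bdnf, Fkbp5, Foxf1, Klf2, Mmp12, Reln, Sema6d and Trib3. Without intact replicate 3 this held for Aqp1, Bdnf, Cdh5, Emcn, Hey2, Lypd2, Mmp12, Mylpf, Nr4a1, Ocln, Reln, Sema6d and Smad9. Without intact replicate 4 this held for Aqp1, Bdnf, Bmpr2, C1qb, Cdh5, Fdps, Foxf1, Hey2, Inhba, Klf2, Lypd2, Mmp12, Mylpf, Nr4a1, Ocln, Pdgfb, Sema6d and Smad9. Without intact replicate 5 this held for Aqp1, C1qb, Cdh5, Foxf1, Mmp12, Nr4a1 and Sema6d. Without replicate 1 at 14 dpi this held for Bdnf, Bmpr2, Cd36, Cdh5, Cdkn2c, Emcn, Fdps, Fkbp5, Foxf1, Gja1, Klf2, Lypd2, Mmp12, Nr1d1, Nr2f2, Nr4a1, Ocln, Pdgfb, Pfkfb3, Reln, Sema3b, Sema7a, Smad9 and Trib3. Without replicate 2 at 14 dpi this held for Bdnf, Bmpr2, C1qb, Cdh5, Fdps, Fkbp5, Flt1, Flt4, Foxf1, Herpud1, Hey2, Hoxb9, Inhba, Klf2, Klf4, Lypd2, Mmp12, Mylpf, Nr1d1, Nr2f2, Ocln, Pfkfb3, Reln, Sema3b, Sema6d, Smad9, Sox17, Trib3 and Unc5b. Without replicate 3 at 14 dpi this held for Bmpr2, C1qb, Cd36, Cdh5, Fdps, Hey2, Klf2, Lypd2, Mmp12, Mylpf, Nr4a1, Ocln, Pdgfb, Sema6d and Sema7a. Without replicate 4 at 14 dpi this held for Aqp1, Asns, Calr, Cd36, Cdh5, Emcn, Ets1, Fkbp5, Foxf1, Hey2, Klf10, Klf2, Ldha, Lypd2, Nr4a1, Plvap, Reln, Sema6d and Smad9. No paired analysis was made, because the labels give no replicate numbers that the groups share. Precision is limited by 2 libraries at 14 dpi in each batch and, for genes near 1 CPM, by few counts.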
